A study of Mus musculus with 9 samples.

Results

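The 7 genes described here are mouse Atxn3, its Josephin-domain paralogs Josd1 and Josd2, and Vcp, Rad23b, Stub1 and Ube4b, whose products work with ataxin-3 on ubiquitinated proteins. They were taken by gene symbol from the 37816 genes of a table of read counts from mouse cerebellum. Of those, 19353 genes had enough reads to be tested, among them 7 of the 7.

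Atxn3 (ENSMUSG00000021189.11) lies at chr12:101918901-101958246 on the minus strand of GRCm38. Josd1 (ENSMUSG00000022426.6) is at chr15:79674251-79687919, minus strand, and Josd2 (ENSMUSG00000038695.13) at chr7:44467980-44471662, plus strand. Vcp (ENSMUSG00000028452.7), Rad23b (ENSMUSG00000028426.10) and Ube4b (ENSMUSG00000028960.20) share chromosome 4, at chr4:42979963-43000507 (minus), chr4:55350043-55392237 (plus) and chr4:149328416-149426749 (minus). Stub1 (ENSMUSG00000039615.9) is at chr17:25830505-25833404 on the minus strand. The 7 are annotated as protein-coding.

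Ataxin-3 is a deubiquitinase: its Josephin domain cleaves ubiquitin chains, its ubiquitin-interacting motifs bind them, and the polyglutamine tract near its C-terminus is expanded in spinocerebellar ataxia type 3 (SCA3), in which the cerebellum is among the affected regions. Josd1 and Josd2 encode small deubiquitinases made of little more than a Josephin domain. Ataxin-3 binds the segregase VCP, which pulls ubiquitinated proteins out of membranes and complexes, and RAD23B, a shuttle that carries such proteins to the proteasome. The ubiquitin ligase CHIP, encoded by Stub1, marks chaperone-bound proteins and is itself deubiquitinated by ataxin-3, and UBE4B extends existing ubiquitin chains.

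RNA was sequenced from the cerebellum of 18-month-old mice labelled C57BL/6, in 3 groups of 3 libraries each. The 15Q mice carried human ATXN3 with 15 CAG repeats on a yeast artificial chromosome, and the 84Q mice the same gene with 84. Every group therefore held human ATXN3 beside mouse Atxn3, which the labels do not describe as altered, and none was without a transgene. The 84Q+IGF1 mice were given 50 mg/kg of insulin-like growth factor 1 weekly into the peritoneum from 9 months of age. The 15Q and 84Q libraries are labelled untreated, whereas the treatment protocol describes PBS injections on the same schedule. The 15Q line was donated by a laboratory and the 84Q line bought, so that repeat length, transgenic line and colony cannot be told apart. The labels do not give the sex of the mice or say whether a library is 1 animal. The study describes metabolic models built mouse by mouse from its RNA-seq data. The p-values measure the spread between these libraries.

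Mouse Atxn3 itself carries a short glutamine stretch where the transgenes carry 15 or 84 CAG repeats, and its coding sequence is shown to set the endogenous gene beside them. In the longest annotated coding sequence (GENCODE vM21, GRCm38), of 355 codons, the longest run of glutamine codons covers codons 292 to 297 in exon 10 of 11, at chr12:101926563-101926580 on the minus strand. The run is 6 codons long, 1 CAA followed by 5 CAG. It is printed 5′ to 3′ with 15 codons on either side, with the glutamine codons in capitals.
Mouse Atxn3: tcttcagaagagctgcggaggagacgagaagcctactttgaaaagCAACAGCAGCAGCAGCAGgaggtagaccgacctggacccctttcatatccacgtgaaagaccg

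The counts are of reads assigned to mouse genes, so the human transgene has no row of its own. How many of its reads, if any, were counted at Atxn3 cannot be told from these counts. The mRNA level of Atxn3 below is therefore that of the mouse row only.

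Library totals lay between 17482654 and 58269196 counts. Purkinje cell and granule cell markers were detected in every library, with 0 of the 4 genes of either list at 0. The summed Purkinje cell markers overlapped between groups, at 5780 to 6190 CPM (counts scaled to the effective library size) in 15Q, 5540 to 6180 in 84Q and 5620 to 6260 in 84Q+IGF1. Within that list Pcp2 was at 121 to 135 CPM in 15Q and 142 to 188 in the other libraries, while Calb1, Car8 and Itpr1 overlapped. The 4 markers of Bergmann glia and astrocytes summed to 1740 to 2280 CPM in 15Q, 2000 to 2270 in 84Q and 2010 to 2100 in 84Q+IGF1, which also overlap. Among them Gdf10 and Aqp4 were higher in 15Q, at 191 to 233 and 433 to 494 CPM against 131 to 189 and 367 to 432. Gfap overlapped, and Slc1a3 was at 709 and 669 CPM in replicates 2 and 3 of 15Q, 1350 in replicate 1 and 1100 to 1240 in the other groups. The sum of 3 microglial markers was 81.6 to 89.5 CPM in 15Q, 90.3 to 115 in 84Q and 84.8 to 91.5 in 84Q+IGF1. The part of these cell types in the results was not tested. Markers of other tissues also moved with the groups: the sum of 5 intestinal markers was 19.2 to 32.8 CPM in 15Q, 1.24 to 2.59 in 84Q and 1.76 to 2.03 in 84Q+IGF1. Fabp1 and Fabp2 were at 0 throughout 84Q and Fabp2 throughout 84Q+IGF1. The 4 liver, 3 epidermal and 3 muscle markers were likewise higher in 15Q, at no less than 12.9, 12.1 and 7.77 CPM in any library, against at most 3.88, 6.21 and 1.59 in the other groups. The choroid plexus transcript Ttr was at 354 CPM in 15Q replicate 1, 340 in 15Q replicate 3 and 832 in 84Q replicate 2, and at most 19.8 elsewhere. Xist stood at 719 to 949 CPM in 4 libraries (replicates 2 and 3 of 15Q, replicate 1 of 84Q, replicate 2 of 84Q+IGF1) and at most 1.15 CPM in the other 5 libraries.

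The first comparison set 84Q against 15Q, which differ in repeat length and also in line and colony. The other comparisons set 84Q+IGF1 against 15Q, 84Q+IGF1 against 84Q, and all 6 84Q libraries against 15Q. Those against 15Q share its 3 libraries. Genes were read at a strict and a lenient threshold, with edgeR p-values adjusted over all 19353 genes. With an adjusted p under 0.1 and a fold of at least 1.5, 0 of the 7 genes passed in any of the 4 comparisons. Of all genes tested, 2.14% passed in 84Q against 15Q, 2.25% in 84Q+IGF1 against 15Q, 0% in 84Q+IGF1 against 84Q and 3.51% in all 84Q libraries against 15Q. In the comparisons against 15Q these were 414, 435 and 680 genes, and as few as 184, 226 and 275 with 1 library left out. DESeq2 also called 0 of the 7 genes by that rule. At an adjusted p under 0.1 without the fold, 0 genes passed in 84Q against 15Q, 1 in 84Q+IGF1 against 15Q, 0 in 84Q+IGF1 against 84Q and 2 in all 84Q libraries against 15Q. The shares of all genes tested were 4.8%, 3.67%, 0% and 9.75%, and those against 15Q turned on single libraries. The 928 genes of 84Q against 15Q became 209 without 15Q replicate 2, 223 without 15Q replicate 3 and 324 without 84Q replicate 3. The 711 of 84Q+IGF1 against 15Q became 271 and 261 without those 15Q libraries, 341 without 84Q+IGF1 replicate 1 and 1098 without 84Q replicate 3. The 1886 of all 84Q libraries against 15Q became 425 and 351 without those 15Q libraries and 1247 without 84Q replicate 3. With all libraries, the shares split into 1.54% higher and 3.25% lower in 84Q against 15Q, 1.04% and 2.63% in 84Q+IGF1 against 15Q, and 3.64% and 6.11% in all 84Q libraries against 15Q. At an unadjusted p under 0.05 the 7 genes gave 1, 2, 0 and 2, beside 19.4%, 17.7%, 4.68% and 22.6% of all genes. In 84Q+IGF1 against 84Q edgeR called 0 of all genes at an adjusted p under 0.1 and 905 at an unadjusted p under 0.05, and DESeq2 called 7 at an adjusted p under 0.1.

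The 28 log2 fold changes, 7 genes in 4 comparisons, had 95% intervals that lay entirely within 1.5-fold in either direction, a log2 fold change of 0.585 in size. The lowest bound was -0.28, for Atxn3 in 84Q+IGF1 against 15Q, and the highest 0.48, for Stub1 in the same comparison. Differences of 1.5-fold or more in these mRNAs were therefore outside every interval, given the spread between the libraries of each group.

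**Figure D1:**
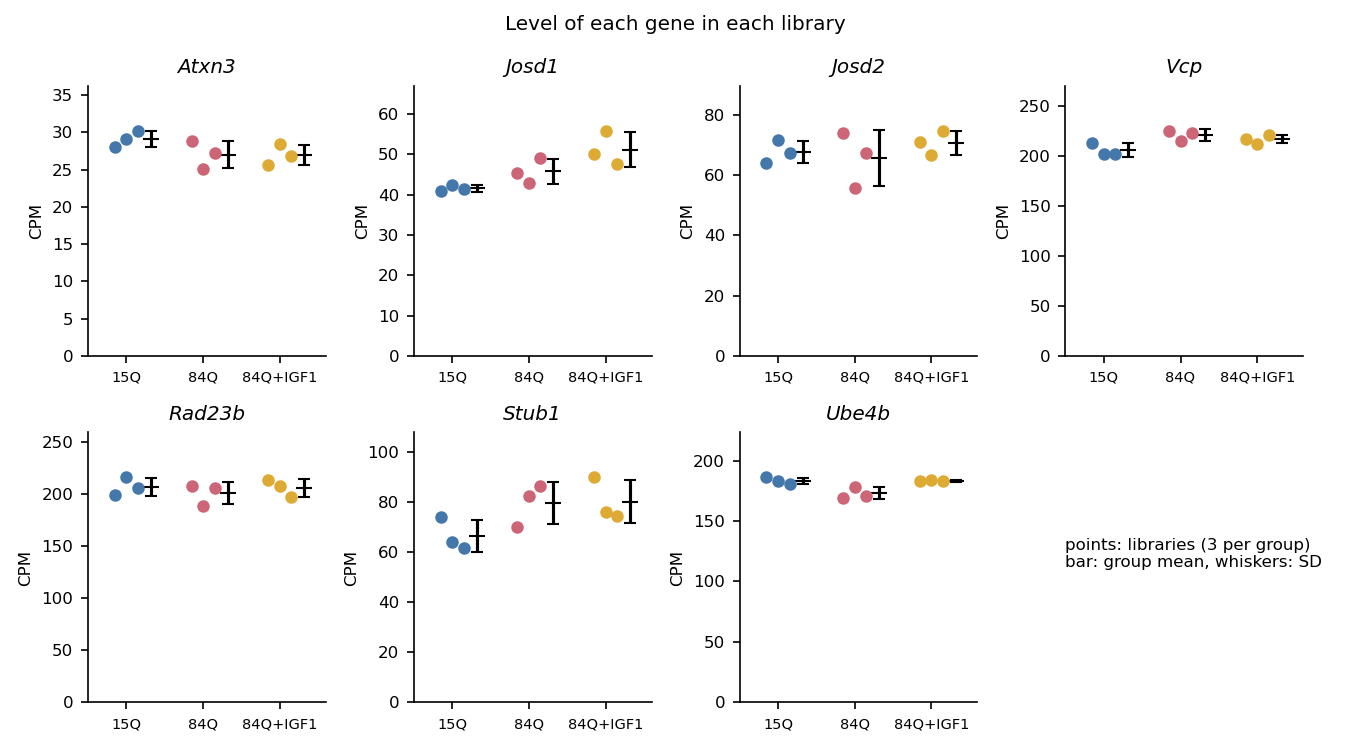
CPM of each of the 7 genes (vertical axis, from 0) in the 3 libraries of 15Q, 84Q and 84Q+IGF1, with the group mean and SD beside the points. Josd1 is at 40.8 to 42.5 CPM in 15Q and at 47.5 to 55.8 in 84Q+IGF1, while the Atxn3 groups overlap.

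Atxn3 was the lowest of the 7 genes and varied little. It was at 28.0, 29.1 and 30.2 CPM in 15Q, 28.8, 25.1 and 27.2 in 84Q, and 25.7, 28.4 and 26.9 in 84Q+IGF1, from 477 to 1763 counts a library. The groups overlapped, 1 of the 84Q libraries lying within the 15Q range, as did 1 of the 84Q+IGF1 libraries. Group means were 29.1 ± 1.08, 27.0 ± 1.82 and 27.0 ± 1.31 CPM (SD, n = 3).

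The log2 fold change of Atxn3 was -0.11 in 84Q against 15Q (95% interval -0.27 to 0.06, edgeR adjusted p = 0.494) and -0.11 in 84Q+IGF1 against 15Q (-0.28 to 0.06, adjusted p = 0.49). Over all 84Q libraries it was also -0.11, with an interval of -0.25 to 0.04 and an adjusted p of 0.364. Between 84Q+IGF1 and 84Q the means were within 0.174% of each other, with an interval of -0.17 to 0.17. Fewer cells of a type and less RNA per cell cannot be told apart in such bulk tissue, for this gene and the others.

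Atxn3 was higher in the libraries with Xist than in those without: 28.4 to 30.2 CPM in the 4 with high Xist, and 25.1 to 28.0 in the other 5. The ranges did not overlap, whereas those of each other member gene did. The split was made after Xist was seen, and how many of all genes separate by it was not counted. Every group held libraries with high and with low Xist. Since 2 of the 3 15Q libraries but 2 of the 6 84Q libraries had Xist, it was unevenly spread over the groups. With Xist as a covariate the log2 fold change of Atxn3 over all 84Q libraries was -0.07, with an adjusted p of 0.611 (edgeR).

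The nearest tested neighbours of Atxn3 were Trip11, a Golgi tether that ends 5633 bases below it, and the pseudogene Ndufb1-ps, 9843 bases above. Trip11 fell in all 84Q libraries against 15Q, from 77.2 to 63.9 CPM (log2 fold change -0.28, interval -0.44 to -0.11, edgeR adjusted p = 0.0595). In 84Q and 84Q+IGF1 taken alone it did not pass (-0.29, adjusted p = 0.112, and -0.26, adjusted p = 0.153). Ndufb1-ps was at 3.96 against 3.66 CPM, with an adjusted p of 0.756.

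Of the 7 genes, Josd1 was the one that passed at an adjusted p under 0.1 in 84Q+IGF1 against 15Q. It lay at 40.8, 42.5 and 41.5 CPM in 15Q, 45.5, 42.9 and 49.0 in 84Q, and 50.2, 55.8 and 47.5 in 84Q+IGF1. Every 84Q and 84Q+IGF1 library was above every 15Q library, by a narrow margin for 84Q replicate 2. Such separation was common: in all 84Q libraries against 15Q, 12.3% of all genes tested did not overlap, 5.93% higher and 6.37% lower. In 84Q against 15Q it was 25.4% (11.9% higher, 13.5% lower) and in 84Q+IGF1 against 15Q 24.7% (11.7% higher, 13% lower).

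In 84Q+IGF1 against 15Q, Josd1 rose 1.23-fold (log2 fold change 0.30, SE 0.07, 95% interval 0.14 to 0.46, edgeR adjusted p = 0.0636). Over all 84Q libraries against 15Q it rose 1.16-fold (0.22, interval 0.08 to 0.36, adjusted p = 0.0739). In 84Q against 15Q its log2 fold change was 0.14, with an adjusted p of 0.323. Between 84Q+IGF1 and 84Q it was 0.16, with an interval that reached from just below 0 to 0.32, with an edgeR adjusted p of 0.969, so that a difference between the treated and untreated 84Q groups was not shown.

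In the main edgeR fit the calls of Josd1 were close to the threshold and depended on single libraries. Without 15Q replicate 1, 2 or 3, or 84Q+IGF1 replicate 1 or 2, its adjusted p in 84Q+IGF1 against 15Q was 0.114, 0.162, 0.208, 0.132 or 0.143 (edgeR). In all 84Q libraries against 15Q it was 0.141, 0.189 and 0.248 without 15Q replicate 1, 2 and 3, and 0.121 without 84Q replicate 3. By the DESeq2 Wald test its adjusted p was 0.011 in 84Q+IGF1 against 15Q and 0.0316 over all 84Q libraries. In edgeR with no filter on low counts it was 0.00544 and 0.0258, and with the replicate number as a block 0.146 and 0.148.

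Josd2, the other small Josephin deubiquitinase, did not pass in any of the 4 comparisons. It was at 64.1, 71.7 and 67.4 CPM in 15Q, 73.9, 55.6 and 67.5 in 84Q, and 70.9, 66.8 and 74.7 in 84Q+IGF1. The 84Q libraries alone spanned almost the whole range, from the lowest library of the series to the second highest. Its log2 fold change was -0.04 in 84Q against 15Q (interval -0.24 to 0.15), 0.06 in 84Q+IGF1 against 15Q (-0.13 to 0.26) and 0.01 over all 84Q libraries (-0.16 to 0.18).

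Within each library, Josd1 was lower than Josd2 per length. In TPM, which divides counts by exon length, the ratio of Josd1 to Josd2 was 0.487, 0.454 and 0.471 in 15Q, 0.472, 0.592 and 0.556 in 84Q, and 0.542, 0.64 and 0.487 in 84Q+IGF1. The mean ratio was 0.545 over the 6 84Q libraries and 0.47 in 15Q, a log2 difference of 0.21 that did not pass the exact two-sided permutation test (p = 0.0714, adjusted p = 0.107 over 3 ratios). With 3 libraries against 6 the smallest p that this test allows is 0.0238.

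Vcp was the highest of the 7 genes per length and, with Ube4b and Rad23b, among the steadiest, with coefficients of variation of 3.91%, 3.25% and 4.14% over the 9 libraries. It was at 213, 202 and 202 CPM in 15Q, 225, 215 and 223 in 84Q, and 217, 212 and 221 in 84Q+IGF1. The 84Q libraries lay above those of 15Q without overlap, and the 84Q+IGF1 libraries overlapped both groups. The log2 fold changes were 0.10 in 84Q against 15Q (interval -0.01 to 0.22, edgeR adjusted p = 0.296), 0.08 in 84Q+IGF1 against 15Q (-0.04 to 0.19) and -0.03 in 84Q+IGF1 against 84Q (-0.14 to 0.08). None passed.

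Rad23b stood at 199, 216 and 206 CPM in 15Q, 208, 189 and 206 in 84Q, and 214, 208 and 197 in 84Q+IGF1, and the 3 groups overlapped. Its log2 fold change was -0.04 in 84Q against 15Q (interval -0.17 to 0.09) and 0.04 in 84Q+IGF1 against 84Q (-0.09 to 0.17).

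Stub1, which encodes CHIP, had the largest estimates against 15Q among the 7 genes in 84Q against 15Q and over all 84Q libraries. It was at 74.1, 64.0 and 61.9 CPM in 15Q, 70.3, 82.6 and 86.6 in 84Q, and 90.0, 76.1 and 74.6 in 84Q+IGF1. The 15Q and 84Q libraries overlapped, because 15Q replicate 1 lay above 84Q replicate 1, and the 84Q+IGF1 libraries were above all of 15Q. Group means were 66.6 ± 6.51, 79.8 ± 8.48 and 80.3 ± 8.5 CPM (SD, n = 3).

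Over all 84Q libraries against 15Q, Stub1 rose 1.2-fold (log2 fold change 0.27, SE 0.08, 95% interval 0.08 to 0.45, edgeR adjusted p = 0.0925). In each 84Q group alone the estimate was alike but did not pass, at 0.26 (interval 0.05 to 0.47, adjusted p = 0.173) in 84Q and 0.27 (0.06 to 0.48, adjusted p = 0.177) in 84Q+IGF1. Between 84Q+IGF1 and 84Q the log2 fold change was 0.01, with an interval of -0.2 to 0.22.

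The call of Stub1 rested on single libraries and moved with Xist. The adjusted p over all 84Q libraries was 0.28 without 15Q replicate 2, 0.345 without 15Q replicate 3, 0.116 without 84Q replicate 2, 0.157 without 84Q replicate 3 and 0.141 without 84Q+IGF1 replicate 1 (edgeR). By the DESeq2 Wald test with all libraries it was 0.0441. In edgeR it was 0.000817 with no filter on low counts and 0.16 with the replicate number as a block. In 84Q against 15Q, Stub1 passed without 15Q replicate 1 (adjusted p = 0.0955) or without 84Q replicate 1 (0.0881). Stub1 was at 61.9 to 76.1 CPM in the 4 libraries with Xist and 74.1 to 90.0 in the 5 without. With Xist as a covariate its log2 fold change over all 84Q libraries was 0.19 and its adjusted p 0.155.

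Stub1 shares its locus with Jmjd8 on the opposite strand. Their exons overlap over 1084 bases, and 37.0% of the 31-base words of Stub1 transcripts occur in Jmjd8 transcripts on one strand or the other. Jmjd8 was at 21.1 ± 1.88, 21.8 ± 1.64 and 22.1 ± 0.985 CPM (SD, n = 3) in 15Q, 84Q and 84Q+IGF1. The library kit keeps strand, but the strand setting of the counting was not given in the sources used here.

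Ube4b, the E4 ligase, was at 186, 183 and 181 CPM in 15Q, 169, 178 and 171 in 84Q, and 183, 184 and 183 in 84Q+IGF1. The 84Q libraries lay below both other groups without overlap, among 25.4% of all genes that did not overlap in 84Q against 15Q and 8.46% in 84Q+IGF1 against 84Q (3.96% higher, 4.5% lower). The log2 fold change was -0.08 in 84Q against 15Q (interval -0.19 to 0.02, edgeR adjusted p = 0.352) and 0.08 in 84Q+IGF1 against 84Q (-0.02 to 0.19, adjusted p = 0.969). Neither passed.

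The TPM ratio of Ube4b to its paralog Ube4a, the other mammalian E4 ligase, was 2.02 in 15Q and 2.08 in the 84Q libraries. The exact permutation p was 0.452. The antisense genes Ube4bos1, Ube4bos2 and Ube4bos3 within Ube4b each averaged at most 2.02 CPM in a group.

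**Figure D2:**
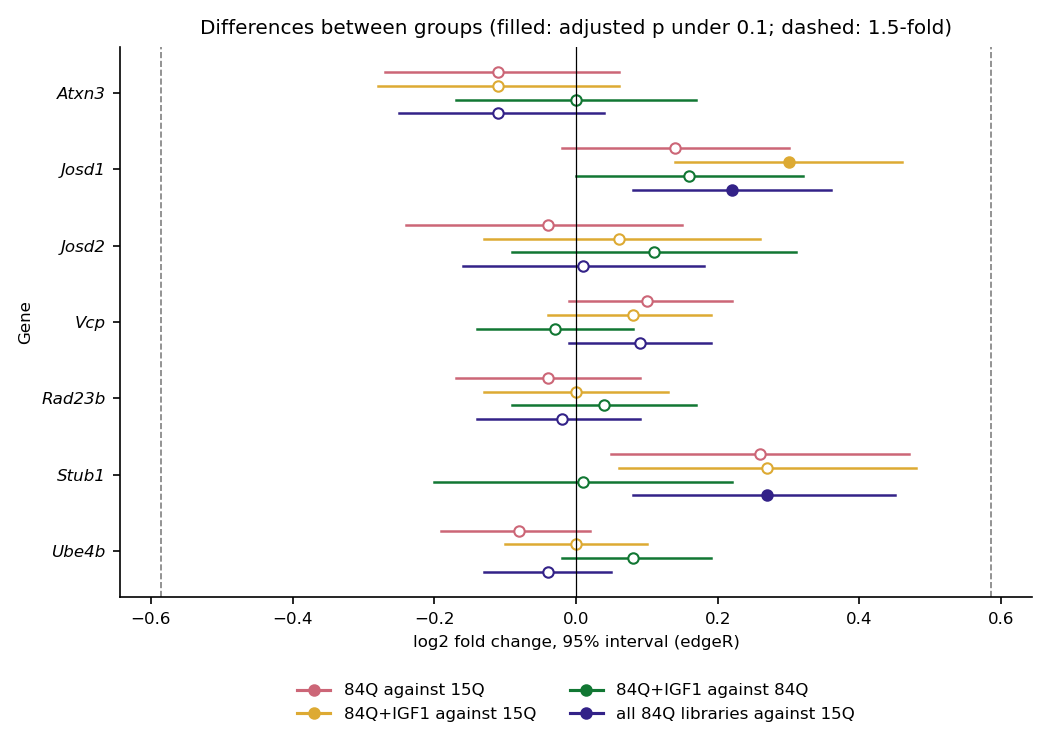
Log2 fold change (horizontal axis) of each gene in the 4 comparisons, with the 95% interval from edgeR as a line. The intervals lie inside the dashed lines at 1.5-fold, and the filled points, with adjusted p under 0.1, are Josd1 in 84Q+IGF1 against 15Q and Josd1 and Stub1 in all 84Q libraries against 15Q.

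The 7 genes spanned a wide range when compared per length. Median TPM was 175 for Vcp, 143 for Rad23b, 118 for Stub1, 105 for Josd2, 104 for Ube4b, 52.2 for Josd1 and 20.8 for Atxn3. Vcp exceeded Rad23b, Rad23b exceeded Stub1, Ube4b exceeded Josd1 and Josd1 exceeded Atxn3 in 9 of 9 libraries each. The folds were 1.24, 1.22, 1.9 and 2.61 (exact two-sided sign-flip permutation test over the libraries, adjusted p = 0.00586 over 6 neighbouring pairs). With every library on 1 side, the p before adjustment is the smallest this test allows. The order was taken from these same libraries, so the p measures only how steadily it held over them. Sequence shared with other genes, given below, also limits such levels.

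Stub1 exceeded Josd2 by 0.19 ± 0.25 on the log2 TPM scale (SD, n = 9), in 6 of 9 libraries (exact permutation adjusted p = 0.0703). That passed at 0.1, and with single libraries left out it passed in 4 of 9 cases. It was lost without 15Q replicate 1, 84Q replicates 2 or 3, or 84Q+IGF1 replicates 1 or 2 (exact permutation adjusted p from 0.131 to 0.141). The groups differed: mean TPM of Stub1 and Josd2 was 105 and 104 in 15Q, 122 and 97.7 in 84Q, and 125 and 107 in 84Q+IGF1. Josd2 and Ube4b did not differ beyond their spread (Josd2 higher in 5 of 9, exact permutation adjusted p = 0.695). Divided by the longest transcript instead of the union of exons, Josd2 stood before Stub1, which then had a log2 difference of -0.07 over Josd2, and Josd2 exceeded Ube4b by 0.45 on the log2 scale (exact permutation adjusted p = 0.00469). The exon union of Josd2 is 2633 bases and its longest transcript 1557 bases, so its place depends on the length used.

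**Figure D3:**
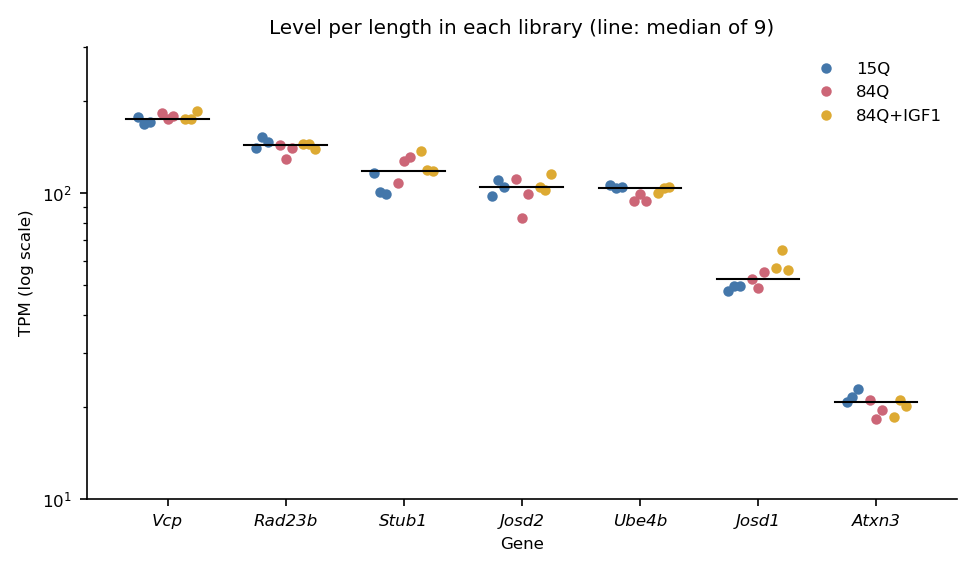
TPM (log axis) of the 7 genes in each library, coloured by group, ordered by the median of 9 libraries (line). Vcp is highest with a median of 175 TPM and Atxn3 lowest with 20.8.

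The genes also share sequence with copies elsewhere to different degrees, which bears on how reads could be split. Of the 31-base words in Vcp transcripts, 43.9% occur in the processed pseudogene Vcp-rs on chromosome X, which was at 8.97 to 11.6 CPM, and 6.18% in 1700022I11Rik on the opposite strand, at 0.103 to 0.396 CPM. For Josd1, 15.2% occur in the processed pseudogene Gm10651 on chromosome 7, at 0.057 to 0.772 CPM. Ube4b shared 8.59% of its words, mostly with the antisense genes Ube4bos1 and Ube4bos3, Atxn3 0.0916%, Rad23b 0.608% and Josd2 none. The levels of Vcp, Josd1, Stub1 and Ube4b are uncertain to that extent, since how reads matching several places were counted was not given in the sources used here.

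Fold changes against 15Q followed exon length among the more abundant genes. Among genes with a mean of at least 10 CPM, in 4 classes of equal size from the shortest exon length to the longest, the median log2 fold change over all 84Q libraries was 0.11, 0.06, 0.01 and -0.06. The share that rose at an adjusted p under 0.1 was 13.3%, 6.32%, 3.41% and 1.12%, and the share that fell 1.47%, 1.43%, 3.68% and 11.7%. Over all genes tested, with low ones included, the medians of 4 such classes were 0, 0.04, 0.01 and -0.05, and the shortest class had 4.2% higher and 5.82% lower. At the abundance of the 7 genes, Stub1 (2561 bases) and Josd2 (2633) lie in the shortest class, Josd1 (3440) and Vcp (4851) in the second, and Atxn3 (5407), Rad23b (5733) and Ube4b (7078) in the third.

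Within their length classes, the fold change over all 84Q libraries exceeded that of 90.3% of genes for Stub1 and 95.1% for Josd1, and that of 14.8% for Atxn3 and 21.9% for Josd2. With a length trend fitted to each library as an offset, a setting chosen after the data were seen, the log2 fold change of Josd1 over all 84Q libraries was 0.15 (edgeR adjusted p = 0.197) and that of Stub1 0.17 (0.196). In 84Q+IGF1 against 15Q, Josd1 was at 0.23 (adjusted p = 0.119). No call of the 7 genes was left with that offset.

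Without the 3 libraries high in Ttr, also chosen after the data were seen, Josd1 was at 0.22 and Stub1 at 0.32 over all 84Q libraries, with adjusted p of 0.596 and 0.515 (edgeR). That leaves 1 library in 15Q, assumed to vary like the others. The part of the intestinal, liver, epidermal and muscle transcripts of the 15Q libraries in these differences was not tested.

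**Figure D4:**
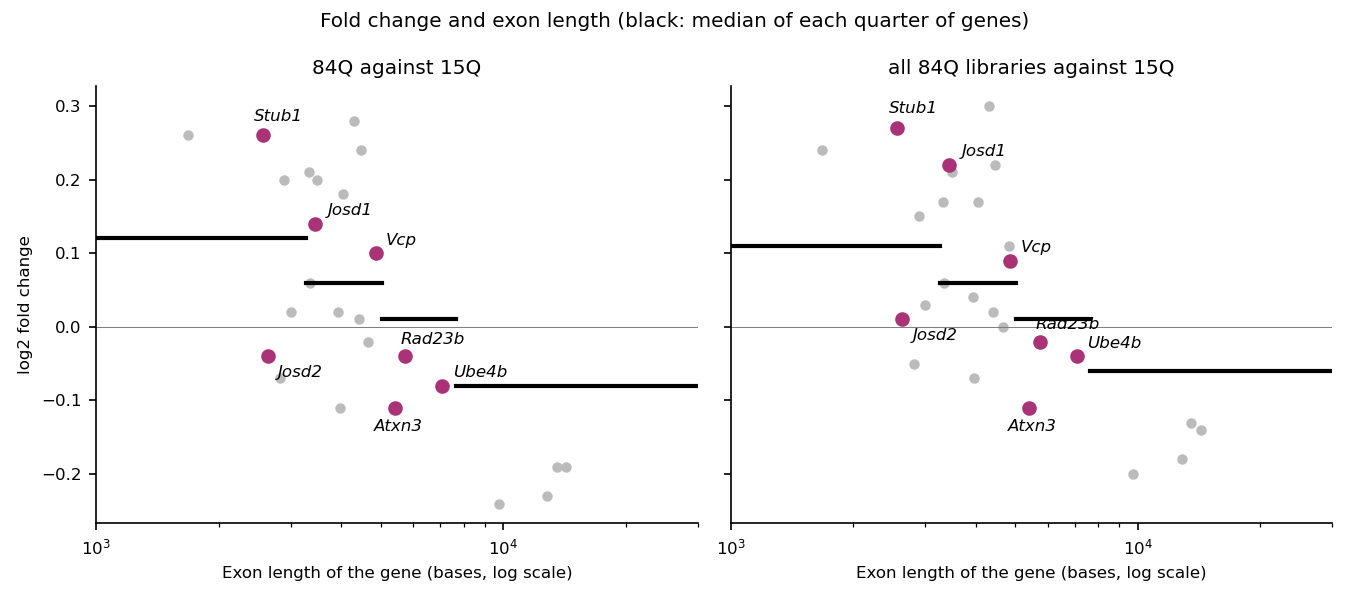
Log2 fold change (vertical axis) against exon length (horizontal axis, log scale, in bases) in 84Q against 15Q and in all 84Q libraries against 15Q. Purple points are the 7 genes, grey points the named pathway genes, and black lines the median of each length class of genes with at least 10 CPM, which over all 84Q libraries runs from 0.11 to -0.06.

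Around the 7 genes, 72 genes of 5 lists were counted, each tested. At an adjusted p under 0.1, 4 were higher and 0 lower in 84Q against 15Q, 2 higher and 0 lower in 84Q+IGF1 against 15Q, 0 in 84Q+IGF1 against 84Q, and 7 higher and 1 lower in all 84Q libraries against 15Q. In either direction that is 5.56%, 2.78%, 0% and 11.1%, beside 4.8%, 3.67%, 0% and 9.75% of all genes tested. All genes split into 1.54% higher and 3.25% lower, 1.04% and 2.63%, and 3.64% and 6.11% in the comparisons against 15Q. Among genes of at least 10 CPM, the shares over all 84Q libraries ran with length. The shortest class had 13.3% higher and 1.47% lower, and the longest 1.12% and 11.7%. Both counts over all 84Q libraries fell together without 15Q replicate 2 or 3. They came to 1 of the 72 genes in either case, beside 425 and 351 of all genes. None reached 1.5-fold with an adjusted p under 0.1 in edgeR or DESeq2. The median log2 fold change of the 72 genes over all 84Q libraries was 0.04, and over all genes tested -0.01.

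Of 24 VCP cofactors, Derl1, a membrane channel component of endoplasmic reticulum-associated degradation, rose over all 84Q libraries (1.13-fold, edgeR adjusted p = 0.0502). Vcpip1, a deubiquitinase bound to VCP, fell (log2 fold change -0.20, adjusted p = 0.0931), and the other 22 did not pass. The most abundant cofactors, Ubxn4, Nsfl1c and Ubxn2a, which recruit VCP or its substrates, had log2 fold changes of 0, -0.07 and -0.05. Of 8 shuttle factors and proteasomal ubiquitin receptors, Adrm1 (1.17-fold, adjusted p = 0.0365) and Psmd2 (1.12-fold, adjusted p = 0.0707) rose. Both encode proteasome subunits that receive ubiquitinated proteins. The most abundant members, the shuttles Ubqln2 and Ubqln1, were at 0.06 and 0.02 and did not pass, and the list's median was 0.09.

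Adrm1 was at 50.9, 51.6 and 49.2 CPM in 15Q, 56.1, 59.6 and 64.0 in 84Q and 60.3, 56.5 and 57.8 in 84Q+IGF1. Its 84Q libraries lay above 15Q without overlap.

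Of 18 chaperone partners and E2 enzymes of CHIP, Hspa8 was the one that passed. It encodes HSC70, the constitutive chaperone whose clients CHIP ubiquitinates. It was at 1270, 1330 and 1270 CPM in 15Q, 1610, 1410 and 1680 in 84Q and 1640, 1590 and 1570 in 84Q+IGF1. The 15Q libraries lay below all the others, and Hspa8 rose 1.22-fold in 84Q (edgeR adjusted p = 0.0609), 1.24-fold in 84Q+IGF1 (0.0425) and 1.23-fold over all 84Q libraries (0.0202). The abundant HSP90 genes Hsp90ab1 and Hsp90aa1 had log2 fold changes of 0.03 and 0.04 that did not pass, and the list's median over all 84Q libraries was 0.02.

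Of 6 ubiquitin genes and E1 enzymes, the polyubiquitin gene Ubb rose 1.18-fold over all 84Q libraries (edgeR adjusted p = 0.0342), from 1470 to 1520 CPM in 15Q to 1670 to 1930 in 84Q and 1730 to 1800 in 84Q+IGF1. The main E1 enzyme Uba1 had a log2 fold change of 0.11 that did not pass (adjusted p = 0.173). Uba6, an alternative E1 enzyme, had a log2 fold change of -0.21 that did not pass (adjusted p = 0.12).

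Of 16 other ataxin-3 binding proteins and regulators, Foxo4, a transcription factor that ataxin-3 binds, rose 1.15-fold over all 84Q libraries (edgeR adjusted p = 0.0796). The transcriptional co-regulators Ncor1, Crebbp and Ep300, all in the longest class of genes and the most abundant of the list, had log2 fold changes of -0.18, -0.13 and -0.14 that did not pass. Several calls depended on single libraries. With each of the 9 libraries left out in turn, Hspa8 still passed over all 84Q libraries in 9 of 9 fits, Adrm1, Derl1 and Ubb in 7, Psmd2 in 5, Foxo4 in 4 and Vcpip1 in 2. The calls of Hspa8 in 84Q and in 84Q+IGF1 alone held in 5 and 6 of the 9 fits. Without 15Q replicate 2 or 3, 1 of the 72 genes passed. With the length offset 3 of the 72 genes passed over all 84Q libraries, Adrm1 at a log2 fold change of 0.18 (adjusted p = 0.0465), Hspa8 at 0.24 (0.0277) and the VCP inhibitor Svip at -0.20 (0.0878).

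Across the 9 libraries and 10329 genes with at least 10 CPM, the genes whose log2 CPM was most like that of Atxn3 were Itch (Pearson r = 0.959), Cep135 (0.933), Fam204a (0.929), Pkn2 (0.929) and Wwox (0.926). Itch encodes a ubiquitin ligase. For Vcp the most like were the proteasome gene Psmd2 (0.972), Ufc1 (0.959) and Saraf (0.953). For Stub1 they were Sirt6 (0.977), Prelid1 (0.976) and R3hdm4 (0.975).

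Josd1 was most like Snupn (0.972), Zgpat (0.97) and Sec24c (0.951), and Josd2 most like St13 (0.957) and Anp32b (0.955). Rad23b was most like Nifk (0.902), Abcd2 (0.902) and Nlgn3 (0.893), and Ube4b most like Zc3h4 (0.948), Pcdhga5 (0.939) and Kit (0.911). Among the 7 genes the strongest correlation was negative, between Atxn3 and Stub1 (r = -0.86 over 9 libraries). Few of these genes were chosen by other measures, 1 of the 5 for Atxn3 by Spearman correlation and 1 after group means were subtracted. The points share the groups, the length trend and the Xist difference, and no test was made.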

How the data were processed

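The deposited table holds raw read counts per gene, which the authors made from strand-specific paired-end libraries by trimming (Trimmomatic 0.36), alignment to GRCm38 (HISAT2 2.2.0) and featureCounts, per the labels and the study's methods. The annotation release, strand setting and treatment of multi-mapping reads were not given in the sources used here. Symbols, positions and exon lengths came from GENCODE vM21, in which 37681 of 37816 gene IDs were found, 36940 with the same version. The ID version of Ube4b was not among them.

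Counts were tested with edgeR 4.0.16 (R 4.3.3; TMM scaling, filterByExpr, quasi-likelihood fit of 3 groups over the 9 libraries) and Benjamini-Hochberg adjustment over 19353 genes. The main thresholds, adjusted p under 0.1 and 1.5-fold, follow the study's methods, while its results count genes at an adjusted p under 0.05. The study's Wald test in DESeq2 (version 1.42.0 here) was an alternative. TPM used the union of exons as gene length, and CPM the TMM-scaled totals. Exact permutation tests used SciPy. Alternatives were DESeq2 size factors, no filter on low counts, robust shrinkage, only the libraries compared, Xist as a covariate, a replicate block, a stricter adjusted p, another gene length and each library left out. The length offset and the fit without libraries high in Ttr were chosen after the data were seen. The scripts were tested on simulated counts.

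Total counts per library were 17482654 to 58269196, which sets the counting error of each value. The spread between libraries of a group comes on top of it. The genes named were the 7 genes, their paralogs, list genes that passed, the 3 highest in each list where described, the 5 genes most like Atxn3 and the 3 most like each other gene, overlapping genes and the neighbours of Atxn3. Uba6, Svip, and the pseudogenes Vcp-rs and Gm10651 were named after their values were seen. The members and lists were chosen with earlier results of these data known. Some genes that this rule or the lists would name are not reported here, though counts over a list and adjustments include them.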

Additional observations from a re-analysis of the deposited data

How the results depend on the processing

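Of the 7 genes, the count at an adjusted p under 0.1 was 0 in 84Q against 15Q, and 1 with no filter on low counts. In 84Q+IGF1 against 15Q it was 1, and 2 with no filter, 0 with the replicate block, 0 with the length offset, 0 without the libraries high in Ttr and 0 at an adjusted p under 0.05. Over all 84Q libraries it was 2, and 1 with Xist as a covariate, 0 with the replicate block, 0 with the length offset, 0 without the libraries high in Ttr and 0 at an adjusted p under 0.05. Dropping the fold threshold gave 1 and 2 where the fold rule gave 0.

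Of the 72 list genes, 4 passed in 84Q against 15Q, and 9 with DESeq2, 11 with no filter, 0 with the replicate block, 1 with Xist, 2 with the length offset, 0 without the libraries high in Ttr and 0 at an adjusted p under 0.05. In 84Q+IGF1 against 15Q 2 passed, and 5 with DESeq2, 4 with the compared libraries alone, 0 with the block, 1 with Xist, 1 with the length offset, 0 without the libraries high in Ttr and 1 at an adjusted p under 0.05. Over all 84Q libraries 8 passed, and 13 with DESeq2, 4 with the block, 3 with Xist, 3 with the length offset, 0 without the libraries high in Ttr and 3 at an adjusted p under 0.05. The cause of these changes in counts was not tested. The log2 difference of Josd2 over Ube4b moved from 0.02 to 0.45 with the longest transcript as length, by the change of length itself: from 2633 to 1557 bases for Josd2 and from 7078 to 5626 for Ube4b.

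With each library left out in turn, the 7 genes gave 0 to 1, 0 to 1 and 0 to 2 calls in the comparisons against 15Q in that order, and the 72 genes 0 to 7, 0 to 4 and 1 to 12. Log2 differences in the order stayed within 0.29 to 0.33, 0.25 to 0.31, 0.13 to 0.22, -0.01 to 0.05, 0.9 to 0.96 and 1.35 to 1.42, and the paralog ratios within 0.17 to 0.25, -0.15 to -0.08 and 0.02 to 0.05. Of the single-gene values of the 7 genes, 465 kept their side of the threshold with no turn in direction, 4 gained and 24 lost the call, and 11 turned in direction, none of them past the threshold before or after. Libraries with the same replicate number did not deviate together (r from -0.309 to 0.0788), so the block shares a number only. With each library left out, the counts over all genes at an adjusted p under 0.1 ranged from 209 to 1363, 261 to 1098 and 351 to 2304 in the comparisons against 15Q, and from 0 to 9 in 84Q+IGF1 against 84Q. Over all genes, the 928 genes at an adjusted p under 0.1 in 84Q against 15Q became 354 with the block, 1503 with DESeq2, 2457 with no filter, 466 with Xist and 94 without the libraries high in Ttr.

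The log2 fold changes that turned were small. Josd2 ranged from -0.14 to 0.07 in 84Q against 15Q and from -0.04 to 0.07 over all 84Q libraries as libraries were left out. With the length offset Josd2 was at -0.02 in 84Q+IGF1 against 15Q and -0.09 over all 84Q libraries, and without the libraries high in Ttr at -0.01 in both. Rad23b ranged from -0.05 to 0.01 over all 84Q libraries, and Stub1 from -0.08 to 0.07 in 84Q+IGF1 against 84Q. In the order of levels, Stub1 over Josd2 was at -0.07 with the longest transcript as length.

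Among list genes, the length offset turned Hsp90aa1 (-0.04), Hsp90ab1 (-0.07), Ubqln1 (-0.04) and Ubqln2 (-0.02) in 84Q against 15Q. It turned Hsp90ab1 (-0.04), Ubqln1, Ubqln2 and Ubxn4 (-0.01 each) in 84Q+IGF1 against 15Q, and Hsp90aa1, Ubqln1, Ubqln2 (-0.02 each) and Hsp90ab1 (-0.06) over all 84Q libraries. Without the libraries high in Ttr, Hsp90ab1 was at -0.02, -0.04 and -0.03 in these comparisons, and in 84Q+IGF1 against 84Q Hsp90ab1 was at -0.02, Hspa8 at -0.04 and Foxo4 and Hsp90aa1 at -0.01. With libraries left out, Hsp90aa1 ranged from -0.02 to 0.07 and Ubqln1 from -0.03 to 0.05 in 84Q against 15Q, Nsfl1c from -0.1 to 0.02 and Ubxn2a from -0.04 to 0.01 in 84Q+IGF1 against 15Q, and Ubqln1 from -0.01 to 0.06 over all 84Q libraries. In 84Q+IGF1 against 84Q the ranges were -0.09 to 0.01 for Adrm1, -0.01 to 0.06 for Foxo4, -0.01 to 0.08 for Hsp90aa1, -0.02 to 0.05 for Hsp90ab1, -0.04 to 0.08 for Hspa8 and -0.09 to 0.02 for Ubb.

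The lowest count of any of the 7 genes in a library was 477, for Atxn3, where counting error is largest. With 3 libraries a group, calls near the threshold turned on single libraries. The 15Q libraries carry transcripts of other tissues, and every comparison against 15Q also compares lines and colonies.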
